A study of Homo sapiens with 10 samples.

Results

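The genes described here are 9 receptor tyrosine kinases with known roles in neuroblastoma or the neural crest: *ALK*, *RET*, *NTRK2*, *NTRK3*, *IGF1R*, *FGFR1*, *ERBB4*, *KIT* and *PDGFRA*. They were chosen by name, and every poly(A) 3′-seq peak whose summit lay in the GENCODE 44 body of 1 of them, or up to 600 bp past its 3′ end, was taken as a member. The rule found 395 of the 178837 peaks in the list. Poly(A) 3′-seq (QuantSeq 3′ REV) primes at poly(A) and reads from the 3′ end of the RNA, so the edge of a peak on the 3′ side of the gene marks the cleavage site, or a place where the primer met A bases inside an RNA. The list was called once on the pooled reads of 10 libraries of IMR-32, an established human neuroblastoma cell line. All cells carried a pLKO.1 lentiviral shRNA and were selected in puromycin for 2 days. CDK12 was targeted in 4 libraries (sh22 and sh98, 2 each), CDK13 in 4 (sh701 and sh704, 2 each) and GFP, the control, in 2. CDK12 and CDK13 are kinases that phosphorylate RNA polymerase II during elongation, and CDK12 loss is studied for its effect on premature cleavage and polyadenylation in introns. Since the list holds no value per library, the knockdowns could not be compared with each other or with shGFP, no depth per library is known, and no result below has a replicate spread or a test. Whether a peak came from control or knockdown cells cannot be told apart.

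A receptor tyrosine kinase has a ligand-binding part outside the cell, a single membrane span and a tyrosine kinase domain inside it. Ligand brings receptors together, their kinase domains phosphorylate each other, and adaptor proteins then pass the signal to RAS-MAPK, PI3K-AKT and phospholipase C. The kinase domain is coded near the 3′ end of the gene, so an mRNA that ends in an intron ahead of the kinase exons can code at most a receptor without a kinase. *ALK* is the receptor most often mutated in neuroblastoma, *RET* serves the GDNF family of ligands, and *NTRK2* (TrkB) and *NTRK3* (TrkC) serve the neurotrophins.

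The pooled list carried all listed adrenergic neuroblastoma markers and most of the mesenchymal ones, with a higher median read number for the adrenergic set. All 9 adrenergic markers had a peak at an annotated transcript end, with a median of 48 reads at the summit of the strongest one and the highest value, 114 reads, at *PHOX2A*. *TH* (21), *DBH* (17) and *ISL1* (16) were below 23, the median of the protein-coding genes that had such a peak (68.7% of all). Of 7 mesenchymal markers 6 had one, with a median of 21 reads. Blood, epithelial, endothelial and liver markers had such a peak in 1 of 4, 1 of 3, 1 of 2 and 1 of 1 genes, at 6, 13, 8 and 3 reads. Reads at the summit are called the pileup here, and were recovered from the fold and p-value deposited for each peak.

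The members fell mostly in introns. Of the 395 peaks, 350 were intronic, or 88.6% (95% Wilson interval 85.1% to 91.4%, counting error only). Over all protein-coding genes the intronic share was 72.2%. A further 25 were terminal, with a summit no more than 200 bp ahead of, or 600 bp past, the end of any of the gene's transcripts. This count depends on the ends used, with 7 terminal peaks at MANE Select ends alone and 14 at complete protein-coding ends. The other 20 were exonic, of which 11 lay in the 3′ UTR of the MANE Select transcript (the reference isoform), 4 in its coding exons, 1 in its 5′ UTR and 4 in exons of other transcripts only. The receptor genes are long, from 53.3 kb for *RET* to 1160 kb for *ERBB4*, and *ALK* and *ERBB4* together held 220 of the 350 intronic peaks (62.9%). Intronic pileups ran from 3 to 27 with a median of 8, and terminal pileups from 6 to 53 with a median of 15. Over all protein-coding genes the medians were 8 for intronic and 16 for terminal peaks.

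**Figure D1:**
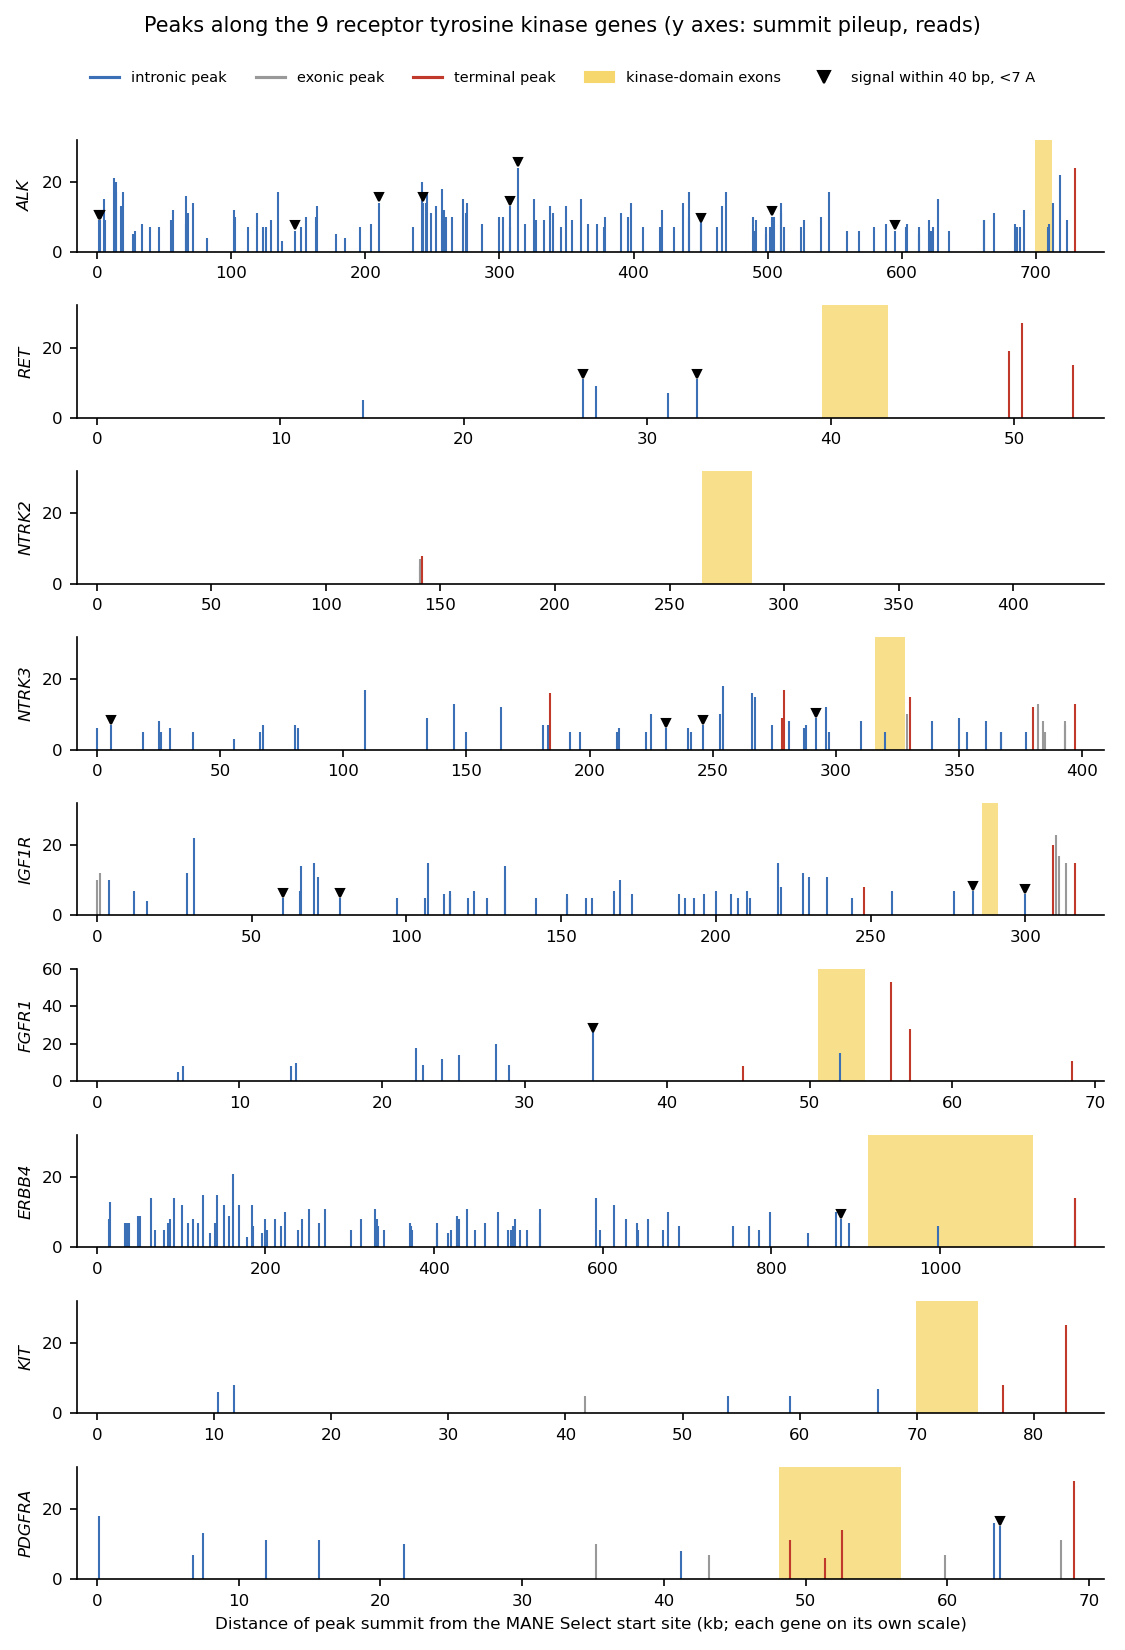
Each line is 1 peak, placed by the distance of its summit from the MANE Select start site (x axis, kb, 1 scale per gene) with its pileup as height (y axis, reads in the pooled libraries; the axis of FGFR1 reaches 60, the others 32). Yellow spans the exons from the glycine-rich loop to DFG, and triangles mark the 23 intronic peaks with AATAAA or ATTAAA within 40 bp and fewer than 7 A downstream. Of the 350 intronic peaks, 332 lie before the yellow span.

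The sequences below show examples of 2 kinds of intronic peak, to which 83 of the 350 did not belong. The first set holds intronic peaks with a canonical polyadenylation signal, AATAAA or ATTAAA, within 40 bp upstream of the 3′ edge, fewer than 7 A in the 10 bases after it and a pileup of at least 10, in *ALK*, *RET* and *PDGFRA*. All sequences are from GRCh38 on the strand of the gene, 5′ to 3′. Those of 60 bases end 20 bases past the 3′ edge, and capitals mark the signal nearest to the edge.
ALK intron 2 (chr2:29711901-29711960, minus strand, pileup 14): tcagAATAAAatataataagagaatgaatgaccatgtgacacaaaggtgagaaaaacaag
ALK intron 3 (chr2:29678276-29678335, minus strand, pileup 14): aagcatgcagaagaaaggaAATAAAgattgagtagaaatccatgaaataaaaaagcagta
ALK intron 3 (chr2:29613311-29613370, minus strand, pileup 13): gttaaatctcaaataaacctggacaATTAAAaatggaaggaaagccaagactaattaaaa
ALK intron 3 (chr2:29607787-29607846, minus strand, pileup 24): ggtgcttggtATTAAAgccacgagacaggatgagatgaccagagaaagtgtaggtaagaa
ALK intron 4 (chr2:29418412-29418471, minus strand, pileup 10): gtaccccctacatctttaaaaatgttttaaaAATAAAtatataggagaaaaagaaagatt
RET intron 3 (chr10:43103617-43103676, plus strand, pileup 11): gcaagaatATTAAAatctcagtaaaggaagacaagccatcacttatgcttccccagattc
RET intron 6 (chr10:43109777-43109836, plus strand, pileup 11): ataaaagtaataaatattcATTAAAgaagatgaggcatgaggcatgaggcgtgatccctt
PDGFRA intron 22 (chr4:54293007-54293066, plus strand, pileup 15): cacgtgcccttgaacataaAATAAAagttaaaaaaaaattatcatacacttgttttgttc

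The second set shows the other, more frequent kind, the strongest A-rich intronic peak under no other gene in each of the 4 genes with the most intronic peaks. A-rich means at least 7 A in the 10 bases after the 3′ edge, the bases in capitals. Oligo(dT) can prime on such a stretch inside an unspliced or intron-retaining RNA, so these peaks cannot be told apart from internal priming.
ALK intron 26 (chr2:29203416-29203475, minus strand, pileup 22): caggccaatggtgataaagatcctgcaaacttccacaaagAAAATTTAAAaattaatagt
ERBB4 intron 1 (chr2:212377901-212377960, minus strand, pileup 21): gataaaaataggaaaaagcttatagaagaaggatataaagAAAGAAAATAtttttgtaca
NTRK3 intron 14 (chr15:88002166-88002225, minus strand, pileup 18): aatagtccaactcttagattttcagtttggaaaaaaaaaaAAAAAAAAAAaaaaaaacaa
IGF1R intron 2 (chr15:98755688-98755747, plus strand, pileup 15): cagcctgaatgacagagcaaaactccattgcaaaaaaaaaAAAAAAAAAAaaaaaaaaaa

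A-rich sequence followed 244 of the 350 intronic peaks, or 69.7% (64.7% to 74.3%), beside 68.1% of all intronic peaks in protein-coding genes. The receptor genes therefore stood near the background. Read on the strand opposite to the gene, 16 of 350 (4.57%, 2.83% to 7.3%) were A-rich, beside 5.43% of all intronic peaks. Any of the 12 hexamers that the study lists as polyadenylation signals stood within 100 bp upstream of 191 of 350 (54.6%, 49.3% to 59.7%), beside 49.4%. A signal within 40 bp together with fewer than 7 A was found at 23 of 350 (6.57%, 4.42% to 9.67%), beside 8.24%. A stretch of 25 bases with at least 22 A within 50 bp downstream followed 21 (6%, 3.96% to 9%), beside 8.44%. The share with a −log10 q of at least 20 was 6 of 350 (1.71%, 0.788% to 3.69%), beside 2.54%. Neither A-rich sequence nor a hexamer was present at 42 of the 350 (12%, 9% to 15.8%), beside 11.4%.

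The 25 terminal peaks, among them ends of decay and noncoding transcripts, looked different. A-rich sequence followed 8 of 25 (32%, 17.2% to 51.6%), beside 21.2% of all terminal peaks. A hexamer stood upstream of 19 of 25 (76%, 56.6% to 88.5%), beside 78.2%, and AATAAA or ATTAAA within 40 bp at 12 of 25 (48%, 30% to 66.5%), beside 49.7%. The mean number of A in the 10 bases downstream was 4.52 for the terminal and 7.23 for the intronic receptor peaks, against 3.9 and 7.09 over all genes.

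**Figure D2:**
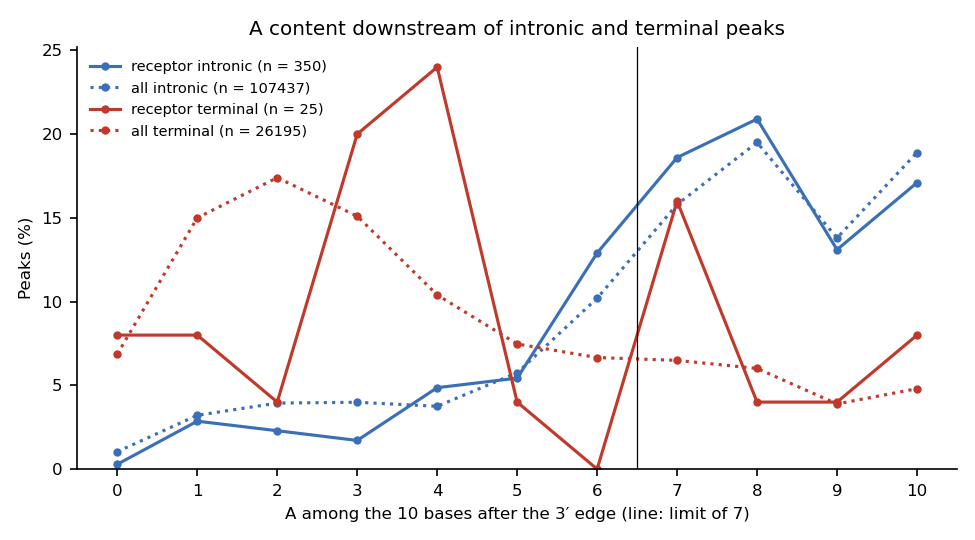
The x axis gives the number of A in the 10 bases after the 3′ edge and the y axis the percent of peaks, for the 350 intronic and 25 terminal peaks of the receptor genes (solid lines) and for all such peaks of protein-coding genes (dotted lines). Most receptor intronic peaks, 69.7%, lie right of the limit of 7, as do 68.1% of all intronic peaks, whereas 32% of receptor terminal peaks do.

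The kinase exons were set on each MANE Select transcript by motifs, from the exon that codes the glycine-rich loop to the exon that codes DFG. The kinase domain goes on past DFG, and the exons of that last part were not mapped. Peaks counted as after the kinase exons may therefore still lie in introns within the domain. The loop exon was exon 21 of 29 in *ALK*, 12 of 20 in *RET*, 15 of 19 in *NTRK2*, 15 of 20 in *NTRK3*, 16 of 21 in *IGF1R*, 11 of 18 in *FGFR1*, 18 of 28 in *ERBB4*, 12 of 21 in *KIT* and 13 of 23 in *PDGFRA*. Ahead of it lay 332 of the 350 intronic peaks, or 94.9% (92% to 96.7%), with 5 between the loop and DFG exons and 13 after them. Of the summed intron length of the 9 genes, 84.8% lay ahead. Weighting each gene by its own number of intronic peaks, the intron length ahead was 88.6%. Of the 23 peaks with a near signal and few A, 21 lay ahead (91.3%, 73.2% to 97.6%). The 33 introns over 20 kb, of 190 in all, held 317 of the 350 intronic peaks (90.6%) and 86.1% of the intron length. Of these 33, 6 held no peak of the intronic class, 4 in *NTRK2* and introns 19 and 25 of *ERBB4*. Intron 12 of *NTRK2*, 1 of the 4, did hold the 3 peaks of that gene, which were classed by exons or ends of other transcripts.

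*ALK*, the receptor for ALKAL ligands, lies on the minus strand of chr2:29192774-29921586. It had 134 peaks, of which 133 were intronic and 1 terminal. The intronic peaks ran from 1.63 to 723 kb past the start site, with between 5 and 16 of them in every 50 kb. Intron 1 (202 kb) held 41, intron 3 (163 kb) held 34 and intron 4 (148 kb) held 28. Per 100 kb of intron *ALK* had 18.4 intronic peaks. This was more than in 90.9% of the 242 other protein-coding genes of 500 to 2500 kb with a terminal peak, whose median was 8.02 (quartiles 3.68 and 13.3). Ahead of the kinase exons lay 128 (96.2%), as did 96.1% of the intron length.

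The strongest intronic peak of *ALK*, in intron 3 at 314 kb, had a pileup of 24, a fold of 12.4 over local background and ATTAAA 30 bases from its edge (counted from the first base of the signal). The terminal peak of *ALK* also reached 24, with a fold of 11.7. With the pileup taken as a plain count, the 95% Poisson interval of either is 15.4 to 35.7 reads. These levels were not separated at this depth. The edge of the terminal peak lay 24 bp past the annotated end. Neither AATAAA nor ATTAAA stood within 40 bp of the edge of this peak, which is 361 bp wide, though at least 1 did within 100 bp. Of the 10 bases after the edge 7 were A, and the end also lies in *CLIP4*, a gene on the other strand. Since the list has no strand, reads of the 2 genes there cannot be told apart.

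In all, 10 intronic peaks of *ALK* had a near signal and fewer than 7 A, with 1 to 6 A in the 10 bases after the edge. Whether any of these 10 peaks came from internal priming was not tested. Besides the 5 printed above, they lay in intron 1 at 1.63, 2.65 and 148 kb (pileups 9, 9 and 6), in intron 4 at 450 kb (pileup 8) and in intron 6 at 595 kb (pileup 6). The first 2 also lie in the lncRNA ENSG00000288553 and the last in ENSG00000286963. All 10 preceded the kinase exons, which begin 699 kb from the start site. *ALK* also had a smaller A-rich share, 81 of 133 (60.9%, 52.4% to 68.8%), than the pooled intronic peaks of the other genes (75.1% of 217). In total 27 of its 133 intronic peaks lay in another annotated gene as well.

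*RET* (plus strand, chr10:43077064-43130351) codes the receptor that GDNF family ligands engage through GFRA co-receptors. Its 5 intronic peaks had pileups of 5 in intron 1, 11 and 9 in intron 3, 7 in intron 5 and 11 in intron 6. All 5 preceded the kinase exons, as did 78% of the intron length. The strongest, in introns 3 and 6, were the only 2 with a near signal, ATTAAA at 32 and 21 bases from the edge, and each was followed by 2 A in 10. The other 3 were A-rich, with 9, 9 and 10 A.

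The 3 terminal peaks of *RET* stood at the ends of different isoforms. The peak at the end of RET-201, which codes 1072 amino acids, had a pileup of 27 and a fold of 14.6. The peak at the end of RET-202, which codes 1114, had a pileup of 15 and a fold of 8.12. Both ends code the kinase domain and differ in the tail after it. The third, at the end of the nonsense-mediated decay transcript RET-208, had a pileup of 19. The Poisson intervals, 17.8 to 39.3 for the 27, 8.4 to 24.7 for the 15 and 11.4 to 29.7 for the 19, overlapped, so the order of the 3 is not certain at this depth. Per 100 kb of intron *RET* had 11.3 peaks, with a median of 13 in the 2430 other genes of 50 to 100 kb (quartiles 8.08 and 17.4).

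Main ends of 5 other genes that carried a canonical signal are shown next, as the 30 bases up to and including the 3′ edge, because they are the sites against which the intronic peaks can be read. Capitals mark the signal.
NTRK3-201 (chr15:87977362-87977391, minus strand, pileup 17): ttAATAAAcactttattttctaatgaaatg
NTRK3-209 (chr15:87926657-87926686, minus strand, pileup 15): acaaaaAATAAAaagatcacatccccaatt
NTRK3-217 (chr15:87859751-87859780, minus strand, pileup 13): tctcttctcaAATAAAgtataaaacaacaa
IGF1R-217 (chr15:98964498-98964527, plus strand, pileup 15): tggtttaagttaAATAAAataattctgtat
ERBB4-204 (chr2:211375720-211375749, minus strand, pileup 14): aaatgaaattcAATAAAatatgaaacaaac
KIT-213 (chr4:54740752-54740781, plus strand, pileup 25): aactttaaagcATTAAAgtgcaatcatcct
PDGFRA-201 (chr4:54298219-54298248, plus strand, pileup 28): cAATAAAtgatatataatttaaagttatac

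The 2 neurotrophin receptors differed widely in their number of peaks. *NTRK3* (minus strand, chr15:87859751-88256791) had 61 peaks, of which 49 were intronic, 6 terminal and 6 exonic. Its transcripts end at several places, and the end of NTRK3-201, coding 612 amino acids without the kinase domain, had the strongest terminal peak, with a pileup of 17, a fold of 12.3 and an edge 2 bp past the annotated end. A peak of 16 stood at the end of NTRK3-213, whose annotation is incomplete at the 3′ end and holds no kinase, and a peak of 9 at the decay transcript NTRK3-207. Ends of transcripts that code both the glycine-rich loop and DFG had 15 (NTRK3-209), 13 (NTRK3-217, the 839-residue reference form) and 12 (NTRK3-216). NTRK3-209 codes 705 amino acids, and DFG starts at residue 697 of the reference form. How much of the kinase domain past DFG it codes was not examined. The interval of the 17, 9.9 to 27.2, overlapped those of these 3 ends with loop and DFG (the lowest 6.2 to 21), so no difference was detectable at this depth. The end shared by NTRK3-208 and NTRK3-204 had no peak in the list.

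Of the 49 intronic peaks of *NTRK3*, 41 preceded the kinase exons (83.7%, and 83.3% of the intron length), 1 lay among them and 7 followed. The strongest was the A-rich peak in intron 14 printed above (pileup 18, fold 12.5). A near signal with few A stood at 4, in intron 3 at 5.89 kb and in intron 14 at 231, 246 and 292 kb, with pileups of 7, 6, 7 and 9. *NTRK3* had 13.2 intronic peaks per 100 kb of intron, and the 384 other genes of 300 to 500 kb had a median of 10.6.

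*NTRK2*, of similar length (427 kb, plus strand, chr9:84668375-85095751), had 3 peaks and none of the intronic class. Their pileups were 7, 5 and 8, all between 84810483 and 84811313, inside intron 12 of the reference transcript and in exons or at ends of other transcripts. The peak of 8 was the terminal one, 94 bp past the end of the decay transcript NTRK2-240 and also in the window of NTRK2-253, which codes 398 amino acids and no kinase. No peak stood at the kinase-coding ends near 85027050 and 85095751, or at the ends of the truncated forms of 477 and 553 amino acids near 84815506 and 84877885. The strongest terminal pileup of *NTRK2* was above that of 5.9% of the 13761 genes with a terminal peak, and that of *NTRK3* above 29.5%. With 0 peaks of the intronic class in 349 kb of intron, *NTRK2* had no more per 100 kb than any of the 384 other genes of 300 to 500 kb.

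*IGF1R* (plus strand, chr15:98648539-98964530), the receptor of the insulin-like growth factors, had 58 peaks. Of these 50 were intronic, and 49 of those preceded the kinase exons. Intron 2 (183 kb) held 40, or 21.8 per 100 kb. The strongest intronic peak was in intron 1, 31.4 kb from the start site, with a pileup of 22, a fold of 15.1, a hexamer upstream and 6 A downstream. Near signals with few A stood in intron 2 at 60 and 78.7 kb, in intron 15 at 283 kb and in intron 20 at 300 kb, with pileups of 5, 5, 7 and 6. The one in intron 20 followed the kinase exons. Along the long 3′ UTR, peaks of 20, 23, 17, 15 and 15 followed each other. The first counted as terminal only through IGF1R-204, a transcript without a coding sequence, and lay 426 bp past its end. The last, with an edge 3 bp short of the annotated end, was the end of IGF1R-217, and the strongest, 23, was an exonic peak ahead of it. All 5 also lie in *SYNM-AS1*. The density of 16.6 intronic peaks per 100 kb was above that of 82% of the 384 other genes of 300 to 500 kb.

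*FGFR1* (minus strand, chr8:38400215-38468834), a receptor for fibroblast growth factors, had the strongest terminal peaks of the 9 genes. The end of FGFR1-209 had a pileup of 53 and a fold of 13.1, with an interval of 39.7 to 69.3. The peak after it, at 28, spanned the end of FGFR1-211, but the end nearest to its edge was that of the decay transcript FGFR1-244. *FGFR1* also had the strongest intronic peak, in intron 2, 34.8 kb from the start site, with a pileup of 27, a fold of 15.3, a signal 30 bases from the edge and 3 A downstream. Of 12 intronic peaks 9 lay in intron 2 (27.4 kb), and 11 preceded the kinase exons. The density was 23.3 per 100 kb, above that of 94.8% of the 2430 other genes of 50 to 100 kb.

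*ERBB4* (minus strand, chr2:211375717-212538841), a neuregulin receptor, had 90 peaks, of which 87 were intronic. Intron 1 (414 kb) held 51 of them and intron 20 (131 kb), between kinase exons, held 1. Ahead of the kinase exons lay 86 of 87 (98.9%), beside 79.3% of the intron length. The strongest intronic peak, in intron 1, had a pileup of 21 and a fold of 13.3, against 14 and 9.93 at the end of ERBB4-204, with overlapping intervals of 13 to 32.1 and 7.65 to 23.5. A-rich sequence followed 69 of 87 (79.3%, 69.6% to 86.5%). A near signal with few A stood at 1, in intron 16 (pileup 8, 883 kb). The density was 7.56 per 100 kb, with a median of 8.03 in genes of like length.

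*KIT* (plus strand, chr4:54657267-54740783), the receptor of stem cell factor, had a terminal peak of 25 with a fold of 18.7 and 5 weak intronic peaks, with pileups of 6, 8, 5, 5 and 7. All 5 preceded the kinase exons, 4 were A-rich, and none had a near signal. The interval of the terminal peak, 16.2 to 36.9, lies above that of the strongest intronic peak, 3.45 to 15.8. At 6.93 intronic peaks per 100 kb, *KIT* was above 21.1% of the genes of 50 to 100 kb.

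*PDGFRA* (plus strand, chr4:54229280-54298245), a receptor for platelet-derived growth factors, had a terminal peak of 28 (fold 13.9) at the end of PDGFRA-201 and one of 14 near the decay transcript PDGFRA-208. Of its 9 intronic peaks, 6 lay in intron 1 (29.3 kb), 1 in intron 7 and 2 in intron 22. The strongest, 18 reads and A-rich, was 0.123 kb from the start site. The 2 in intron 22, with 16 and 15 reads, follow the kinase exons. All 9 lie also in ENSG00000282278, a gene annotated across most of *PDGFRA* on the same strand, so the reads of the 2 genes cannot be told apart.

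Intronic peaks thus reached the level of the strongest terminal peak in 4 of the 8 genes with both kinds, *ALK*, *NTRK3*, *IGF1R* and *ERBB4*, the longest of the 8. In *IGF1R* this rests on the classes, since its 3′ UTR peak of 23, counted as exonic, was above the strongest intronic peak of 22. Over protein-coding genes with both kinds, of any length, this held for 23.3% of 10374. These 4 genes had the most intronic peaks of the 8 (133, 49, 50 and 87), so their highest value was drawn from more peaks. No share was taken over genes of like length. The intervals of the 2 peaks overlapped in these 4 and in *RET* and *PDGFRA*, and did not overlap in *FGFR1* and *KIT*.

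**Figure D3:**
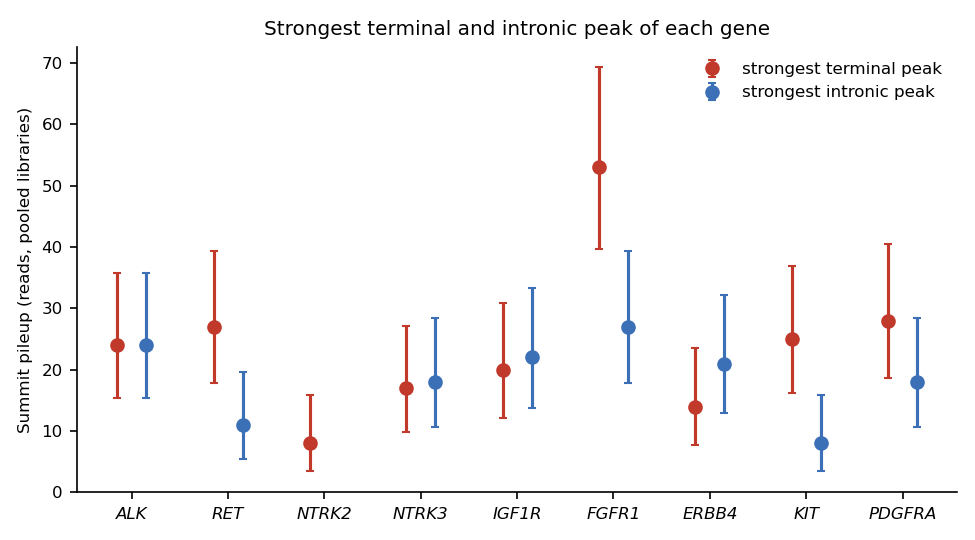
Points give the pileup (y axis, reads in the pooled libraries) of the strongest terminal and the strongest intronic peak of each gene (x axis), with 95% Poisson intervals that cover counting error only. FGFR1 has the highest of both, 53 and 27, and NTRK2 has no intronic peak.

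**Figure D4:**
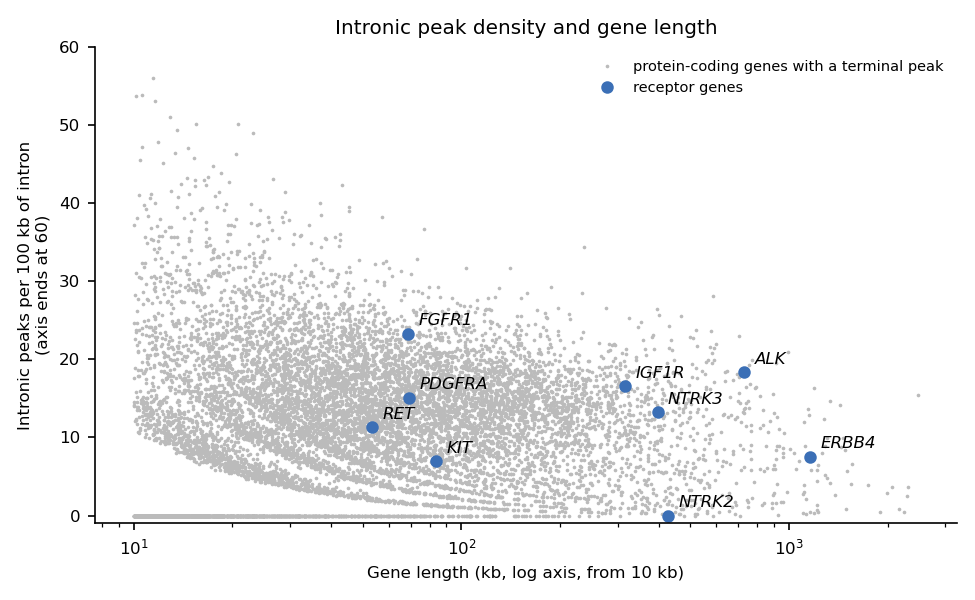
Intronic peaks per 100 kb of intron (y axis, linear, shown up to 60) are plotted against gene length (x axis, kb, log axis from 10 kb) for protein-coding genes with a terminal peak, with the 9 receptor genes labelled. ALK at 18.4 and FGFR1 at 23.3 lie in the upper part of the genes of their length, and NTRK2 lies at 0.

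By the pileup of the strongest terminal peak, the order was *FGFR1* (53), *PDGFRA* (28), *RET* (27), *KIT* (25), *ALK* (24), *IGF1R* (20), *NTRK3* (17), *ERBB4* (14) and *NTRK2* (8). The ends behind these values differ in kind. That of *IGF1R* belongs to a transcript without a coding sequence, and its coding end IGF1R-217 had 15. The strongest terminal peaks of *NTRK3* and *NTRK2* stand at ends that code no kinase. One read is made per RNA end, so no correction for length was made. The reported caller settings do not say whether reads with the same start were all counted. A pileup may therefore lie below the number of reads at a site. The Poisson intervals of all neighbours in this order overlapped, those of *FGFR1* (39.7 to 69.3) and *PDGFRA* (18.6 to 40.5) only at their edges. Overlap does not show that the levels are equal. The median over the 13761 genes with a terminal peak was 23, and these genes are 68.7% of all protein-coding genes. *FGFR1* was above 95.6% of them.

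Of 49 other receptor tyrosine kinases, 37 had a terminal peak (75.5%), with a median of 17 reads. The highest were *FGFR2* (48), *RYK* (45), *PTK7* (35), *AATK* (34) and *LMTK2* (30). The 12 without one included *MET*, *AXL*, *KDR* and *FLT3*. *LTK*, the closest relative of *ALK*, had 9 reads.

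**Figure D5:**
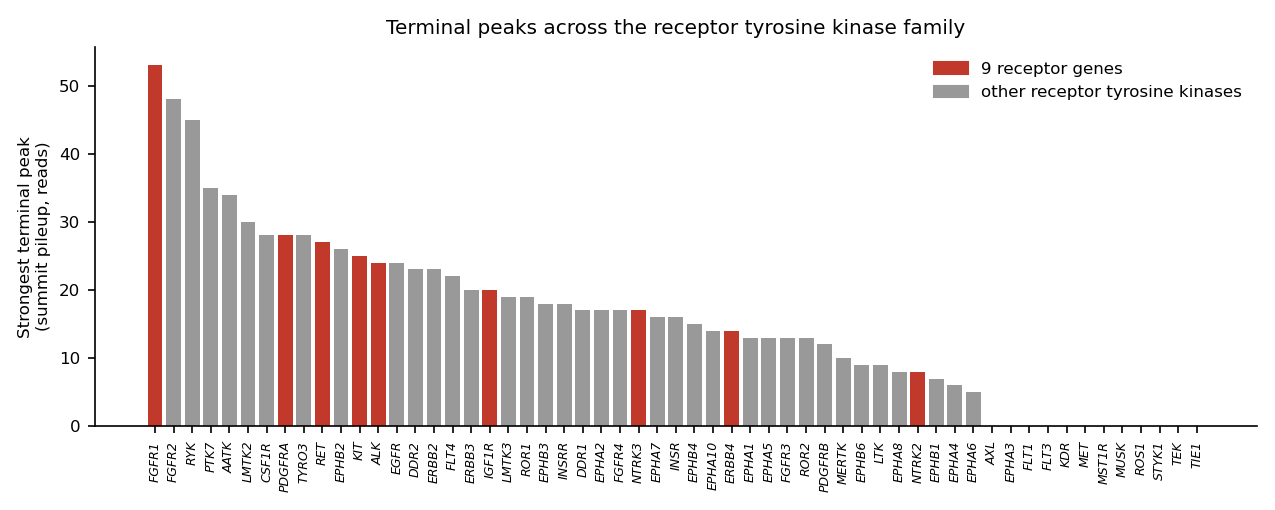
Bars give the pileup of the strongest terminal peak (y axis, reads) for the 9 receptor genes (red) and 48 of the 49 other receptor tyrosine kinases (grey), in falling order, and genes without a terminal peak in the list stand at 0. FGFR1 leads at 53, and the other 8 lie between 8 and 28.

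Ligand genes had terminal peaks in 17 of 26 cases (65.4%, near the 68.7% of all protein-coding genes), with a median of 14 reads. The highest were *MDK* (66), which codes midkine, *PSPN* (24) and *IGF2* (23), followed by *NRG4* (22) and *NRG1* (21). *ALKAL2*, an ALK ligand, had 18 and *BDNF*, the ligand of TrkB, had 15, whereas *NTF3*, the ligand of TrkC, had none. Co-receptors had them in 8 of 11 genes (72.7%), with a median of 27. *GFRA2* (46), *NGFR* (45), *SORT1* (34) and *GFRA1* (29) were the highest, followed by *IGF2R* (25). Downstream signalling genes had them in 32 of 35 (91.4%), with a median of 25. *NRAS* (54), *SHC1* (41) and *GRB2* (40) were among the highest. Intronic peaks stood in 27 of those 35 genes, beside 59.4% of all protein-coding genes.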

How the data were processed

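Peaks were taken from the list that the authors deposited. They mapped single-end reads to GRCh38 with STAR (2.5.1b), downsampled the libraries, which came from 2 batches, to the smallest, merged all 10 and called peaks with MACS2 (2.1.1). The study also removed peaks with a genomic A stretch downstream and no listed hexamer upstream. Judged from the 3′ edge, the list used here still held such peaks, for example in *ALK* intron 4. Its intronic peaks are therefore not to be taken as the study's filtered poly(A) sites. The deposited fold is the ratio of pileup to local background after the same small constant is added to both. It therefore lies below the plain ratio, most so where the background is low. The deposited p-value and q-value are given as −log10, and the deposited score is a scaled −log10 q. The deposited summit offset, added to the start, placed each summit.

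Pileups were recovered from fold and p-value. Summits were classed on the gene's strand (GENCODE 44) as terminal, exonic or intronic, in that order. Peaks counted over all genes were given to the longest gene. Shares have 95% Wilson and pileups exact Poisson intervals, which cover counting error only. The Poisson intervals take a pileup as a plain read count, although it is the highest point of a peak. They are a guide and not a test. Densities were set beside genes of the same length class instead of the nearest in length, as first planned. Named were all 9 genes, terminal peaks with at least 0.5 of the strongest pileup, near-signal intronic peaks and the strongest intronic peak. Members, lists, the use of the 3′ edge and the limit of 7 A were chosen with earlier results of these data known. Some listed genes and 1 sequence are not reported here. The steps were tested on simulated data. Scripts ran in Python 3.11.15 (pandas 2.3.3, numpy 2.4.6, matplotlib 3.10.9, scipy 1.17.1).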

Additional observations from a re-analysis of the deposited data

How the results depend on the processing

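No paired analysis was possible because peaks were called on merged reads with no value per library, so no library could be left out either. A −log10 q of at least 5, the limit the study used for its sample-specific peaks, left 239 intronic and 24 terminal peaks. Of the intronic ones 95.4% lay ahead of the kinase exons, 56.1% had a hexamer and 71.5% were A-rich. Below that limit lay the near-signal peaks of *ALK* in intron 1, of *IGF1R* in intron 2 and of *NTRK3* at 246 kb. A −log10 q of at least 20 left 6 intronic and 5 terminal peaks of 350 and 25, with 83.3% ahead of the kinase exons, 83.3% with a hexamer and 50% A-rich. Terminal peaks fell to 7 with MANE Select ends only, to 14 with complete protein-coding ends and to 13 with the 3′ edge within 50 bp of a protein-coding end, a limit added after seeing the data. Leaving out peaks that also lie in another annotated gene gave 17 terminal and 308 intronic peaks. The hexamer share was 36% from the summit, 41.7% in a 50 bp window and 20% when only AATAAA or ATTAAA counted. The A-rich share was 82.6% with at least 6 of 10, 51.1% with at least 8 and 51.4% with at least 14 of 20. On the opposite strand it was 4.57% and without *ALK* 75.1%, both added after seeing the data. In these alternatives the share ahead of the kinase exons otherwise ran from 92.9% to 95.7%. Depth per library is unknown, so a missing peak, as at the kinase-coding ends of *NTRK2*, says only that none passed the caller's threshold.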
